A study of Homo sapiens with 8 samples.

Results

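A set of 10 genes of the Hippo pathway was followed in HepG2 cells treated with EZH1/2 inhibitors, namely the transcriptional effectors YAP1, WWTR1 (which encodes TAZ), TEAD1 and TEAD4, the YAP target genes ANKRD1 and CCN2, and the pathway components LATS2, AJUBA, AMOTL1 and AMOTL2. These 10 genes, of 25603 with a value, were set by name, because ANKRD1 had been noted in these same 8 libraries for its large decrease. They were thus selected on the log2 difference of ANKRD1 between treated and control cells, and values of the 10 genes in it are given as a description with no test. All 10 passed the filter on low levels that left 20153 genes.

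HepG2, a human hepatocarcinoma line, was cultured on gelatin in medium with serum, insulin and dexamethasone in both groups. EZHi cells received UNC1999 and valemetostat tosylate, each at 1 µM, for 4 days, and vehicle cells received DMSO, at 0.2% per the labels and at a lower concentration per the methods of the study. Polycomb repressive complex 2 silences genes by methylating lysine 27 of histone H3, and EZH1 or EZH2 is its catalytic subunit. Each group held 4 libraries of mRNA, numbered 1 to 4, and the libraries came from a single line and a single dose and time.

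The Hippo pathway is a kinase cascade that limits organ growth. The kinases MST1 and MST2 (genes STK4 and STK3) with their adaptor SAV1 activate the kinases LATS1 and LATS2, which phosphorylate the coactivators YAP and TAZ and hold them in the cytoplasm. When the cascade is quiet, as on stiff substrates or at low cell density, YAP and TAZ enter the nucleus, bind the TEAD transcription factors and switch on target genes. In the liver, YAP is active in biliary cells and low in mature hepatocytes, and its activity is set largely by phosphorylation and location, which RNA levels do not measure.

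Values are log2 expression levels, normalised by the authors between libraries and for transcript length, so that levels can be compared between genes. They are also expressed here as estimated FPKM (fragments per kilobase of transcript, scaled to a common library size). Differences are EZHi minus vehicle on the log2 scale. The normalisation shrinks differences of genes with few reads, so those of the low genes AMOTL1 and AMOT may be understated, by an amount not measured here. Read depth is unknown. In these bulk libraries, fewer cells expressing a gene and less RNA of it per cell cannot be told apart.

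Markers of hepatocytes were abundant in both groups, with a summed estimated FPKM over 8 genes of 22327 to 43311 in vehicle and 24493 to 39256 in EZHi libraries. This sum is mostly ALB and AFP. Of the 8 genes, FGB rose (difference 0.92, limma adjusted p = 0.00167), and 3 rose and 1 fell with replicate number as a block. The 4 biliary markers summed to 633 to 1051 and 799 to 1149 respectively, with none called, 1 at an unadjusted p under 0.05 (limma) and 1 called when replicate number entered the fit. Stellate and fibroblast markers (3 of 5 analysed) summed to 12.3 to 15.0 and 14.8 to 17.3. Endothelial markers (3 of 4 analysed) summed to 2.26 to 2.72 in vehicle and 3.42 to 7.21 in EZHi libraries, as CDH5 (difference 2.28, limma adjusted p = 0.00411) and VWF (1.45, adjusted p = 0.00537) rose. PECAM1 was level (0.04, adjusted p = 0.867). Of the immune markers, LYZ was abundant, CD3E lay under the filter, and PTPRC and CD68 were not analysed here. The part of these markers in the results below was not tested.

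TEAD factors bind DNA at GGAATG, or its reverse complement CATTCC on the other strand. The 250 bases before each RefSeq gene start (GRCh38.p14) were searched for these letters, and 8 of the 10 genes had at least one such window, 11 windows in all. The windows of the 2 target genes are shown with that of AMOTL1, the gene with the largest difference, and with short stretches around the motif of 3 other genes. Capitals mark the motif.
ANKRD1: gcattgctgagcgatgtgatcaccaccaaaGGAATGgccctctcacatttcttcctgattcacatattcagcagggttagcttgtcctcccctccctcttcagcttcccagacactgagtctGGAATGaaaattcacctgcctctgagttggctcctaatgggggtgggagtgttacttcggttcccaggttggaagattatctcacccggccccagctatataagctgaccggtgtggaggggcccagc
CCN2: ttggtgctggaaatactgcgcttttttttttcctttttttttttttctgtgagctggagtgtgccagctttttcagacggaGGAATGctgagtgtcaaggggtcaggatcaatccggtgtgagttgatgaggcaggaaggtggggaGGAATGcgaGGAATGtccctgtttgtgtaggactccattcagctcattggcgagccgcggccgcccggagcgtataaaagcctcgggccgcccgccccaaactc
AMOTL1: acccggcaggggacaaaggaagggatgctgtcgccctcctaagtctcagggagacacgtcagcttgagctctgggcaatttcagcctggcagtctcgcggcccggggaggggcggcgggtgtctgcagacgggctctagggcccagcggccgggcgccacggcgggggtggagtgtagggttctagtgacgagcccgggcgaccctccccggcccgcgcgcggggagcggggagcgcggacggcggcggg
AJUBA: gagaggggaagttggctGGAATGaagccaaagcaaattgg
AMOTL2: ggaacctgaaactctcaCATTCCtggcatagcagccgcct
YAP1: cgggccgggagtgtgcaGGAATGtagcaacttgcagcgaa
The ANKRD1 window (chr10:90921088-90921337, minus strand) held 2 motifs, beginning 220 and 128 bases before the start. CCN2 (chr6:131951373-131951622, minus strand) held 3, at 169, 104 and 95 bases, the last pair separated by a few letters. The AMOTL1 window (chr11:94768106-94768355, plus strand), before a start inside the annotated gene, held none. The stretches of 40 bases are from chr14:22976879-22976918 (AJUBA, minus strand), chr3:134374494-134374533 (AMOTL2, minus strand) and chr11:102110268-102110307 (YAP1, plus strand), with 1 motif in each window, at 59, 69 and 162 bases. For AJUBA and AMOTL2 these windows precede starts inside the gene. A second window of each, before the RefSeq start farthest upstream (chr14:22982552-22982801 and chr3:134375418-134375667), held no motif.

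Of 35093 promoter windows of this length, 11.9% held at least 1 motif, 0.940% held 2 or more and 0.0826% held 3 or more. Of the 11 windows of these genes 5 held a motif, each from a different gene, and those of LATS2, WWTR1 and AMOTL1 held none. All windows of WWTR1 and AMOTL1 precede starts inside the annotated gene, so the farthest upstream start was not searched. The windows also differed in CpG content: 4 CpG in the ANKRD1 window, 13 in that of CCN2 and 28 in that of AMOTL1, against a median of 11. Their GC content was 53.2%, 53.2% and 73.2%, against a median of 58.0%. In the remaining windows the CpG count was 36 for YAP1, 25 for LATS2, 29 and 0 for AMOTL2, 20 and 3 for AJUBA, and 13 and 1 for WWTR1. A match in letters is a description and does not show binding.

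The 10 genes did not move as a block. The target gene ANKRD1 was lower in every EZHi library than in any vehicle library, AMOTL1 was higher in the same way, and the coactivator gene YAP1 and the kinase gene LATS2 lay at nearly the same level in both groups. Between these extremes, AJUBA, WWTR1 and TEAD4 were modestly lower without overlap, and CCN2, AMOTL2 and TEAD1 were lower with overlap. Differences were negative for 9 of 10 genes with a median of -0.36, where 52.0% of all genes tested were negative with a median of -0.0077. EZHi libraries lay below all vehicle libraries for 4 of the 10 genes (7.93% of all genes tested, and 16.1% of the 7809 genes whose estimated FPKM was 10 or more) and above them for 1 (10.7%). By replicate number, 7 of the 10 were lower in all 4 pairs (24.2% of all genes tested) and 1 was higher in all 4 (20.6%). As the genes were chosen with this contrast known, nothing is read from these shares.

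**Figure D1:**
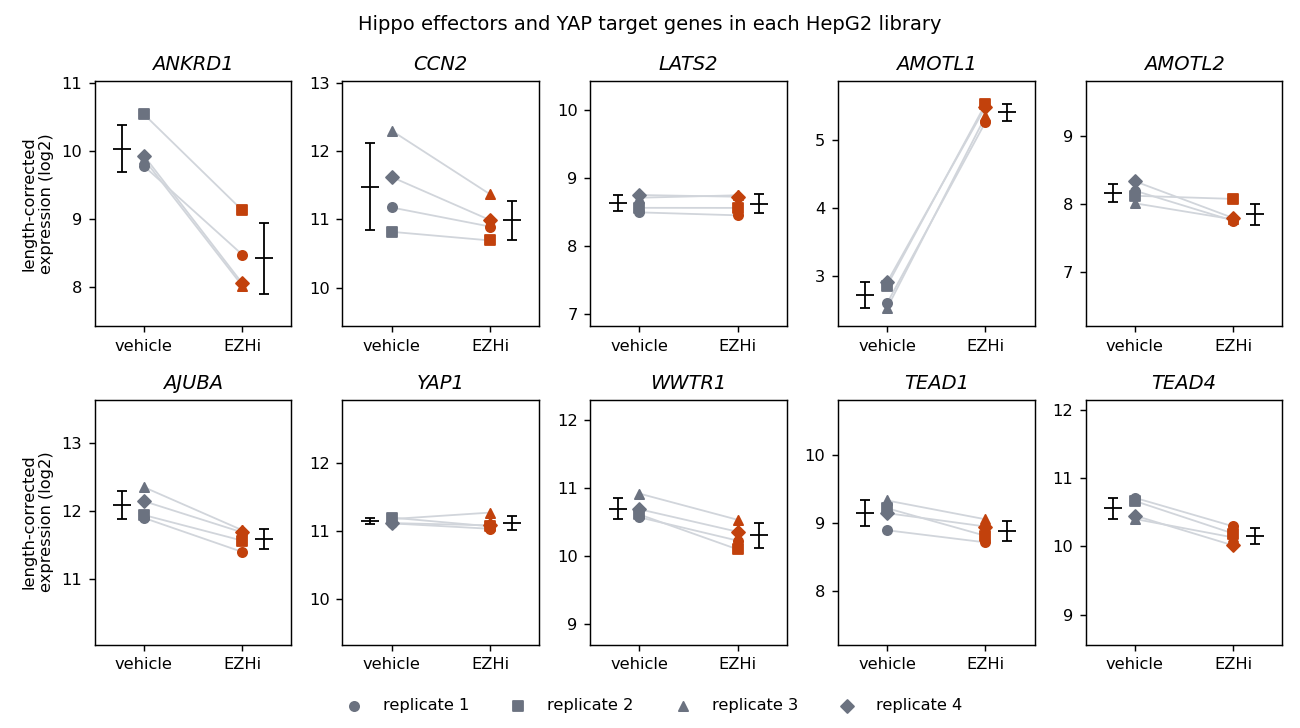
Log2 expression level of each of the 10 genes in the 4 vehicle and 4 EZHi libraries, with each panel's y axis spanning the same number of log2 units. Points are libraries, lines join libraries of the same replicate number, and bars beside them give the mean ± SD of each group. ANKRD1 and AMOTL1 separate widely in opposite directions, while YAP1 and LATS2 stay level.

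ANKRD1 (ENSG00000148677, chr10:90912096-90921087, minus strand) encodes a nuclear and sarcomeric ankyrin repeat protein and is a widely used readout of YAP and TAZ activity. Its log2 level was 9.79, 10.55, 9.89 and 9.94 in vehicle replicates 1 to 4 and 8.48, 9.13, 8.03 and 8.06 in EZHi replicates 1 to 4. The lowest vehicle library thus stood above the highest EZHi library, and replicate 2 was the highest of its group in both. The mean was 10.04 ± 0.34 in vehicle and 8.43 ± 0.52 in EZHi cells (SD, n = 4 each). The difference was -1.61 (SE 0.25, or 0.10 with replicate number as a block), which is 3.06-fold lower by the log2 means. The estimated FPKM was 42.1 and 14.1. Within the 4 pairs of equal replicate number the difference ran from -1.88 to -1.30, so the size of the decrease varied less than the levels did. No other gene shares exon bases with ANKRD1 in the annotation.

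Its relatives in the muscle ankyrin repeat family were scarcely expressed. ANKRD23 had an estimated FPKM of 0.128 in vehicle and 0.125 in EZHi cells (difference -0.04, limma adjusted p = 0.81). Its sign turned when levels were centred on the mean of well expressed genes, those with an estimated FPKM of 10 or more (0.03). ANKRD2 lay under the filter, at 0.0364 and 0.0403.

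CCN2 (ENSG00000118523, chr6:131948176-131951372, minus strand), formerly CTGF, encodes a secreted matricellular protein and is the other standard YAP readout. It stood at 11.18, 10.82, 12.31 and 11.62 in vehicle and at 10.90, 10.69, 11.37 and 10.99 in EZHi replicates 1 to 4. Every EZHi library was below the vehicle library of its number, by 0.13 to 0.94, but the groups overlapped because the vehicle libraries were themselves spread over more than a log2 unit. The difference was -0.49 (SE 0.28, or 0.11 with replicate number as a block). Means were 11.48 ± 0.64 and 10.99 ± 0.28 (SD, n = 4 each), with an estimated FPKM of 120.5 and 80.5. The difference rested in part on vehicle replicate 3, without which it was -0.22, and was -0.71 without vehicle replicate 2. An antisense gene, LINC01013, overlaps 278 exonic bases of CCN2 at an estimated FPKM of 0.0954, and the counting did not use strand.

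YAP1 (ENSG00000137693, chr11:102110447-102233424, plus strand) encodes the coactivator YAP. Its level was 11.11, 11.19, 11.17 and 11.11 in vehicle replicates and 11.03, 11.07, 11.27 and 11.08 in EZHi replicates 1 to 4. The groups overlapped fully, with means of 11.15 ± 0.04 and 11.11 ± 0.11 (SD, n = 4 each) and a difference of -0.04 (SE 0.07). This sign turned under quantile normalisation (0.07) and when levels were centred on well expressed genes (0.04). On the opposite strand, 2 genes with no symbol overlap 628 and 11 of its exonic bases. The first was not analysed here, and the second had an estimated FPKM of 3.49.

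WWTR1 (ENSG00000018408, chr3:149517235-149736714, minus strand), the TAZ gene, stood at 10.57, 10.61, 10.92 and 10.69 in vehicle and 10.23, 10.10, 10.53 and 10.36 in EZHi replicates 1 to 4. All EZHi libraries were below all vehicle libraries, though the gap between the nearest pair was small. The difference was -0.39 (SE 0.11), and the estimated FPKM was 65.2 and 49.7. Of the summed estimated FPKM of YAP1 and WWTR1, which was 153.8 ± 8.54 in vehicle and 136.3 ± 12.6 in EZHi cells (SD, n = 4 each), YAP1 made up 57.7% and 63.6%. This share was 54.4% to 60.0% in vehicle and 62.3% to 66.2% in EZHi libraries, so it did not overlap. WWTR1-AS1 overlaps 756 exonic bases of WWTR1 on the opposite strand at an estimated FPKM of 0.717.

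TEAD4 (ENSG00000197905, chr12:2959330-3040676, plus strand) was the most abundant of the 4 TEAD genes. It stood at 10.72, 10.67, 10.40 and 10.45 in vehicle and 10.30, 10.19, 10.13 and 10.02 in EZHi replicates 1 to 4, again without overlap. The difference was -0.40 (SE 0.09), from an estimated FPKM of 59.2 to 44.8.

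TEAD1 (ENSG00000187079, chr11:12674421-12944737, plus strand) had levels of 8.90, 9.22, 9.33 and 9.15 in vehicle and 8.72, 8.82, 9.06 and 8.95 in EZHi replicates 1 to 4. Each EZHi library was below the vehicle library of its number, yet the groups overlapped through the low vehicle replicate 1. The difference was -0.26 (SE 0.11). Summed over TEAD1 to TEAD4, the estimated FPKM was 122.1 ± 6.45 in vehicle and 99.0 ± 1.96 in EZHi cells (SD, n = 4 each), and the share of TEAD4 was 48.5% and 45.2%, with overlap.

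The remaining TEAD genes and the TEAD cofactors, which were not among the 10, gave no call. TEAD2 (difference -0.04, limma adjusted p = 0.90), TEAD3 (-0.24, adjusted p = 0.063) and VGLL4 (0.13, adjusted p = 0.345), a cofactor that competes with YAP for TEAD, were tested. By limma 1 of these 3 genes had an unadjusted p under 0.05, and with replicate number as a block TEAD3 fell (adjusted p = 0.0152). VGLL3 lay under the filter, and VGLL1 and VGLL2 were not analysed here.

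**Figure D2:**
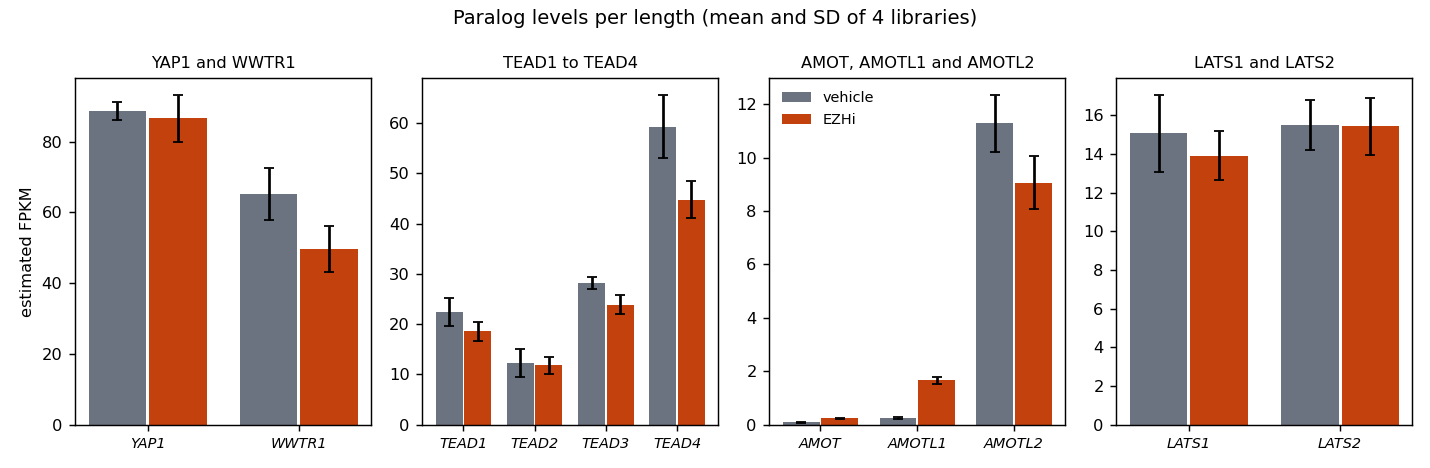
Estimated FPKM (linear axis from 0) of the genes of 4 families, as bars for the mean of 4 vehicle and 4 EZHi libraries and error bars for the SD. YAP1 is level while WWTR1 is lower, TEAD4 leads the TEAD genes in both groups, and AMOTL1 is small beside AMOTL2 even after its increase.

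AMOTL1 (ENSG00000166025, chr11:94706431-94876748, plus strand) belongs to the angiomotins, junction proteins that bind YAP and hold it outside the nucleus. It had the largest difference of the 10 genes, in the opposite direction to ANKRD1. Its level was 2.61, 2.86, 2.53 and 2.91 in vehicle and 5.27, 5.53, 5.35 and 5.49 in EZHi replicates 1 to 4. The groups were far apart, with means of 2.73 ± 0.19 and 5.41 ± 0.12 (SD, n = 4 each) and a difference of 2.68 (SE 0.12), which ran from 2.58 to 2.82 over the pairs. This is 6.41-fold by the log2 means, and the estimated FPKM was 0.261 and 1.66. A gene with no symbol, not analysed here, overlaps 496 of its 10030 exonic bases on the opposite strand.

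AMOTL2 (ENSG00000114019, chr3:134355347-134375479, minus strand), an angiomotin that is itself a YAP target, was the main member of the family in these cells. It stood at 8.20, 8.12, 8.01 and 8.34 in vehicle and 7.76, 8.08, 7.78 and 7.80 in EZHi replicates 1 to 4. EZHi replicate 2 lay among the vehicle libraries and the other 3 EZHi libraries below them, for a difference of -0.32 (SE 0.10), or -0.39 without that library. The pseudogene RPL39P5, not analysed here, overlaps 187 of its exonic bases on the same strand.

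AMOT, the founding angiomotin, was not among the 10 and entered the fit. It passed the filter on low levels, at 0.1, only through its EZHi level, so its call is a description. It rose from 1.00, 1.16, 1.46 and 1.19 to 2.47, 2.47, 2.84 and 2.59, a difference of 1.39 (SE 0.11, limma adjusted p = 4.62e-05), but its estimated FPKM went only from 0.0905 to 0.237. A pseudocount of 0.5 on the estimated FPKM, which damps low genes, gave 0.32 for AMOT and 1.51 for AMOTL1. Summed over AMOT, AMOTL1 and AMOTL2, the estimated FPKM was 11.6 ± 1.08 and 10.97 ± 1.09 (SD, n = 4 each), with overlap. Within this sum, AMOTL1 went from 2.24% (2.02% to 2.52%) to 15.2% (14.4% to 16.4%), and AMOTL2 from 97.0% to 82.6%.

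LATS2 (ENSG00000150457, chr13:20973036-21061586, minus strand), a kinase that phosphorylates YAP and TAZ and is also induced by them, was level. It stood at 8.49, 8.56, 8.71 and 8.75 in vehicle and 8.45, 8.56, 8.75 and 8.72 in EZHi replicates 1 to 4, so its level varied more between replicate numbers than between treatments. The difference was -0.0086 (SE 0.09), and it was positive under quantile normalisation (0.03) and centring (0.07).

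AJUBA (ENSG00000129474, chr14:22971177-22982551, minus strand) encodes a LIM protein of cell junctions that binds and restrains LATS kinases. It had the highest length-corrected mean of the 10 genes, at 11.90, 11.95, 12.36 and 12.15 in vehicle and 11.40, 11.57, 11.72 and 11.69 in EZHi replicates 1 to 4. The groups did not overlap, and the difference was -0.49 (SE 0.11), from an estimated FPKM of 171.7 to 121.6. A gene with no symbol, not analysed here, overlaps 50 of its exonic bases on the same strand. LATS2, TEAD1 and TEAD4 have no such overlap.

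By length-corrected level, the vehicle order ran AJUBA, CCN2, YAP1, WWTR1, TEAD4, ANKRD1, TEAD1, LATS2, AMOTL2 and AMOTL1. Neighbours overlapped between libraries for AJUBA and CCN2, CCN2 and YAP1, WWTR1 and TEAD4, and TEAD4 and ANKRD1. Within a library, however, AJUBA was above CCN2 and TEAD4 above ANKRD1 in 4 of 4 vehicle libraries, whereas CCN2 was above YAP1 in 3 and WWTR1 above TEAD4 in 2, so only those last orders varied. In EZHi cells ANKRD1 stood after LATS2 by its mean, with LATS2 above it in 2 of 4 libraries, and YAP1 stood before CCN2 in 3 of 4. AMOTL1 was last in both groups, and apart from AMOTL2 in both.

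Whether further YAP targets followed ANKRD1 was examined with 18 genes known as targets of YAP, TAZ and TEAD, of which 16 were tested. They moved in both directions. Of the 16, 2 fell and 3 rose, beside 4.27% and 8.85% of all genes tested, and the median difference was -0.05. Of well expressed genes, 9.16% fell and 2.73% rose. Among the 3 was FOXF2, which passed the filter only through its EZHi level. With replicate number as a block 4 fell and 5 rose, beside 15.1% and 14.9% of all genes (30.0% in either direction, against 13.1% without it). The split of all calls, 1784 higher and 860 lower, depended on scaling and filter. It was 2304 and 398 when centred on well expressed genes, and 780 and 799 at an estimated FPKM of 1 or more. The YAP targets split 4 and 2, and 2 and 2, in those settings.

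The clearest decrease among these targets was AXL, a receptor tyrosine kinase. It went from 8.16, 8.45, 8.17 and 8.33 to 7.32, 7.39, 7.32 and 7.18, with no overlap and a difference of -0.97 (SE 0.09, limma adjusted p = 9.29e-05). CRIM1, a transmembrane regulator of growth factors, fell by 0.54 (adjusted p = 0.00606). CCN1, formerly CYR61 and a close relative of CCN2, had a difference of -0.70 (SE 0.21) and was lower in 4 of 4 pairs, but its adjusted p was 0.0595, and 0.00213 with the block.

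The 3 targets that rose covered different functions. FJX1, a Golgi-resident regulator of protocadherin signalling, went from 4.03, 4.19, 3.20 and 3.98 to 5.61, 5.82, 4.95 and 5.31 (difference 1.57, limma adjusted p = 0.00231). NT5E, the ectoenzyme CD73, rose by 0.63 (adjusted p = 0.0112), and FOXF2, a transcription factor with an estimated FPKM of 0.0899 in vehicle cells, by 0.64 (adjusted p = 0.011). FOXF2 passed the filter on low levels, at 0.1, only through its EZHi level of 0.142, so its call is a description. With a pseudocount of 0.5 the differences were 1.03 for FJX1, still called, and 0.12 for FOXF2. IGFBP3, a carrier of insulin-like growth factors, was higher in 4 of 4 pairs (difference 1.03), with an adjusted p of 0.106, or 7.46e-05 with the block. ASAP1 (-0.26, adjusted p = 0.0657) and F3 (0.32, adjusted p = 0.0512) passed only with the block. The other 7 tested targets, MYOF and GADD45A among them, ran from -0.34 to 0.34. TGFB2 lay under the filter and RBMS3 was not analysed here.

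**Figure D3:**
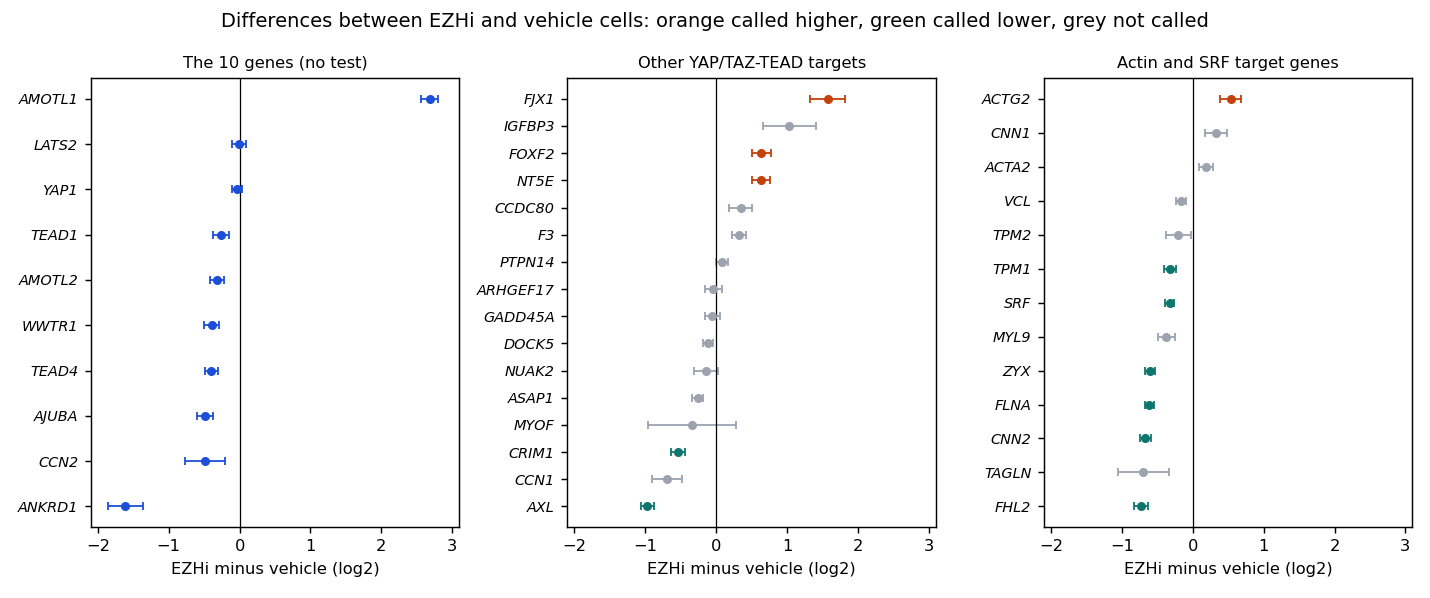
Difference between EZHi and vehicle cells (log2, EZHi minus vehicle) for the 10 genes, other YAP target genes, and actin and SRF genes. Points are differences of means of 4 libraries each, lines are ± SE from limma, and colour marks calls at an adjusted p under 0.05 outside the 10 genes. Other YAP targets lie on both sides of 0, while most actin and SRF genes lie below it.

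The upstream part of the pathway was described with 27 genes of the kinase module and its regulators, of which 26 were tested. The core kinases gave no call: LATS1 had a difference of -0.11 (limma adjusted p = 0.555), STK3 of -0.08 (0.741) and STK4 of -0.09 (0.442), and the adaptor gene SAV1 of 0.02 (0.893). NF2, the merlin tumour suppressor gene, had a difference of -0.20 (adjusted p = 0.125, and 0.0474 with the block). Signs turned for STK3 without vehicle replicate 3 (0.03) and for STK4 under quantile normalisation (0.0063).

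In this list 4 genes fell and AMOT rose, beside 4.27% and 8.85% of all genes, and beside 9.16% and 2.73% of well expressed genes. AMOT passed the filter only through its EZHi level. The median difference was -0.13, against -0.095 for well expressed genes. MAP4K2, a kinase that can activate LATS kinases, fell by 0.56 (adjusted p = 0.000746), from 8.08, 8.10, 8.12 and 8.08 to 7.41, 7.56, 7.57 and 7.62. The scaffold gene WWC2, which promotes LATS activity, fell by 0.48 (adjusted p = 0.0149). STRN3, part of the STRIPAK phosphatase complex that opposes MST kinases, fell by 0.27 (adjusted p = 0.0186), and the MST-activating kinase gene TAOK3 by 0.31 (adjusted p = 0.0474). Of 16 alternative settings, 13 ended the call of TAOK3, 5 that of STRN3 and 2 that of WWC2. The number that fell was 2 under quantile normalisation, when centred on well expressed genes (where 2 rose), or without vehicle replicate 4 or EZHi replicate 2, 1 without EZHi replicate 4, and 10 with the block, where AMOT, FAT4 and MAP4K4 rose. The genes that fell included activators and an opponent of the cascade. DCHS1 lay under the filter.

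**Figure D4:**
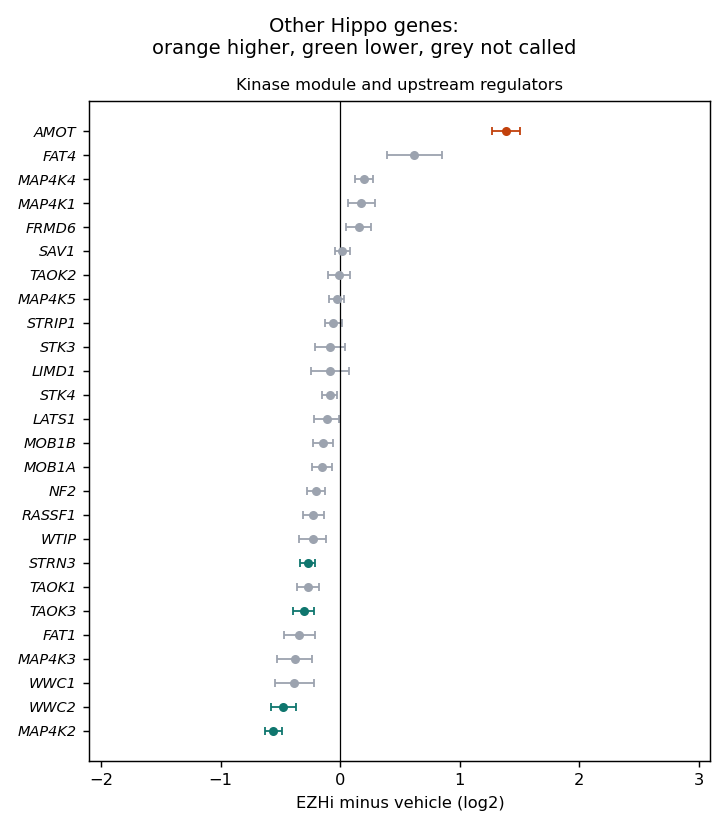
Difference between EZHi and vehicle cells (log2, EZHi minus vehicle) for 26 genes of the Hippo kinase module and upstream regulators. Points are differences of means of 4 libraries each, lines are ± SE from limma, and colour marks genes with an adjusted p under 0.05. AMOT stands alone at 1.39, and most other genes lie between -0.56 and 0.20.

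Many YAP targets are also sensitive to actin, whose polymerisation releases the coactivators of serum response factor (SRF). Of 13 actin and SRF target genes, 6 fell and 1 rose, beside 4.27% and 8.85% of all genes tested, and beside 9.16% and 2.73% of well expressed genes (estimated FPKM of 10 or more). Their median difference was -0.33, against -0.095 for those 7809 genes. The list was chosen with earlier results of these libraries known.

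FHL2, a LIM protein of the actin skeleton, fell by 0.73 (limma adjusted p = 0.0012). CNN2, a calponin, fell by 0.67 (adjusted p = 0.000411), from 12.13, 12.19, 12.10 and 12.15 to 11.50, 11.67, 11.38 and 11.33. The actin crosslinker gene FLNA (-0.61, adjusted p = 0.000256), the focal adhesion gene ZYX (-0.60, adjusted p = 0.0004), SRF itself (-0.33, adjusted p = 0.011) and the tropomyosin gene TPM1 (-0.33, adjusted p = 0.0284) fell as well. ACTG2, a smooth muscle actin gene at an estimated FPKM of 0.274 in vehicle cells, rose by 0.53 (adjusted p = 0.0389), or 0.21 with a pseudocount of 0.5. The call of TPM1 was lost in 8 of 16 alternative settings and that of ACTG2 in 7 of 15. With the block MYL9, TAGLN and VCL were also called lower and CNN1 higher, for 9 that fell and 2 that rose. TAGLN, a calponin relative, had a difference of -0.70 with an adjusted p of 0.258, or 7.73e-05 with the block.

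The SRF motif, known as the CArG box, was found on either strand of 1.16% of all promoter windows. It was in 7 of 17 windows of the actin and SRF genes, from 5 of the 11 genes with a window, CNN2, FHL2, FLNA, SRF and ACTG2. These genes were listed as known SRF targets, and some FHL2 windows share bases, so the excess was built in. No window of the 8 Hippo genes held it, but at that background rate so few windows would rarely hold one. Among the YAP target genes outside the 10, 5 of 13 windows, from 5 of 12 genes, held GGAATG or CATTCC. Of these, AXL fell, FOXF2 rose, NUAK2 and PTPN14 were not called and TGFB2 lay under the filter. The genes were listed as known TEAD targets. The share of windows was 13.8% for the kinase module list, 17.6% for the actin and SRF list and 11.9% for all windows.

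Genes whose levels ran most like those of ANKRD1 over the 8 libraries were sought among 13007 genes with an estimated FPKM of 1 or more. The 5 highest Pearson correlations were with ADAM9 (r = 0.995), a membrane metalloprotease, PLEKHA8P1 (0.993), annotated as a pseudogene, FKBP3 (0.988), MAP1LC3B (0.988), a coat protein of autophagosomes, and SH3RF1 (0.983). The libraries share the treatment split and replicate numbers, so high values arise readily. On deviations from the group means, which leave out the treatment, the 5 highest were MT2A (0.987), LEPROTL1 (0.978), ADAM9 (0.976), CD58 (0.976) and MTMR1 (0.966). By Spearman's rank correlation MAP1LC3B was again among the 5 listed as highest. These were all tied at 1.0, so the cut at 5 is arbitrary. The rank correlation was 0.976 for PLEKHA8P1, FKBP3 and SH3RF1 and 0.952 for ADAM9.

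Among the listed genes, CNN2 (r = 0.977) and AXL (0.951) ran closest to ANKRD1 over all libraries. On deviations from the group means their r was 0.914 and 0.753, the latter just below that of MYOF (0.762). CCN2 did not: its r was 0.234 over all libraries and -0.589 on deviations from the group means. ANKRD1 was highest in replicate 2 of both groups, where CCN2 was lowest in both. WWTR1 likewise had a deviation r of -0.677.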

How the data were processed

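RNA sequencing of 8 HepG2 libraries, 4 vehicle and 4 EZHi, was analysed. Groups and replicate numbers came from the sample titles, and the study describes the replicates as biological and independent. The authors mapped paired reads of mRNA to hg38 with HISAT2 and counted them per gene with HTSeq without strand. The authors then applied the regularized log transform of DESeq2, followed by a correction for mean transcript length. The authors' processing notes list HISAT2 2.2.1, HTSeq 0.9.1 and DESeq2 1.40.2. The deposited values are log2, although the table is named as FPKM. It held 25604 rows, of which 1 repeated a gene and was dropped. Depth is unknown, so no counting interval is given.

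Estimated FPKM is 2 to the power of the value, divided by 25.6, the mean over libraries (24.4 to 27.3, in units of 1e6 normalized reads) of summed values multiplied back by transcript length (GENCODE release 44). A mean estimated FPKM of 0.1 or more was required, and limma 3.58.1 was run in R 4.3.3 (lmFit, eBayes with trended prior, group as the term, two-sided, Benjamini-Hochberg adjustment over 20153 genes), and called at an adjusted p under 0.05. SEs are from this fit. Its calls, but not its SEs, were checked on simulated data whose libraries varied independently, unlike the same-numbered libraries here. Promoter windows are from RefSeq (GRCh38.p14).

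Same-numbered libraries deviated together from their group means (correlations over genes of 0.22 to 0.63, against -0.58 to 0.20 for different numbers), so the numbers were taken to pair the libraries and blocked values are given where they change a call. SEs of the 10 genes are without the block unless stated, and the block gave a smaller SE for each of them. Where not given above, the SE with the block was 0.05 for AJUBA, WWTR1, TEAD4, LATS2 and YAP1. It was 0.06 for TEAD1, 0.08 for AMOTL2 and 0.10 for AMOTL1. Alternatives were the replicate block, 3 other scalings, no filter or a stricter one, a pseudocount, no prior trend, and leaving out each library.

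The 10 genes and all gene lists were chosen with earlier results of these data known. Named genes were the 10, called genes of each list up to 8, fixed pathway genes, and the 5 most like ANKRD1 by each measure. Genes named beyond this rule, such as IGFBP3 and TAGLN, were chosen after their values were seen.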

Additional observations from a re-analysis of the deposited data

Results flagged for a closer look

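In 74 groups of 4 libraries, one for each gene described and treatment group, the gap between the highest or lowest library and its nearest neighbour was compared with the group's range. Chance flags about 1 in 20 such groups, or 3.7 here, and 2 were found. AMOTL2 stood at 8.08 in EZHi replicate 2 and at 7.76 to 7.80 in the other 3 EZHi libraries, a gap of 0.874 of the range. FHL2 stood at 9.62 in EZHi replicate 3 and at 9.29 to 9.33 in the others, a gap of 0.903 of the range. Both libraries lay on the vehicle side of their group, and the FHL2 library stayed below every vehicle library.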

How the results depend on the processing

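The sign of the difference held under all 16 alternatives for ANKRD1, CCN2, AMOTL2, AJUBA, WWTR1, TEAD1 and TEAD4, and under the 15 that could be run for AMOTL1, which an estimated FPKM of 1 or more leaves out. YAP1 was 0.073 under quantile normalisation and LATS2 changed sign. AMOTL1, a low gene, was 2.49 under quantile normalisation and 1.51 with a pseudocount of 0.5. Leaving out a library moved CCN2 between -0.71 and -0.22, ANKRD1 between -1.85 and -1.44 and AMOTL1 between 2.62 and 2.74.

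With the replicate block, calls rose from 2644 to 6051 over all genes, 5 to 9 of YAP targets, 5 to 13 of Hippo genes, 0 to 1 of TEAD genes and cofactors, and 7 to 11 of actin and SRF genes. Among genes named here the block ended no call. An estimated FPKM of at least 1 left 1579 calls over all genes and 3 of Hippo genes, with fewer genes tested. Quantile normalisation also left 3 of Hippo genes, and without a filter 1 TEAD cofactor, VGLL3, was called. Leaving out a library gave 1811 to 2571 calls over all genes, 5 to 7 of YAP targets, 2 to 5 of Hippo genes, 0 of TEAD genes and 5 to 7 of actin genes, with 2 Hippo genes without EZHi replicate 4 and 3 without vehicle replicate 4. Signs turned for STK3 (-0.163 to 0.034 over the libraries left out, positive without vehicle replicate 3), STK4 (0.0063, quantile), TEAD2 (0.031 centred, and -0.159 to 0.089 over the libraries left out, positive without vehicle replicate 2 or EZHi replicate 3) and ANKRD23 (0.033 centred), none of them called. TAOK3 lost its call in 13 of 16 alternatives, TPM1 in 8, STRN3 in 5 and WWC2 in 2, and ACTG2 in 7 of 15. By Spearman's correlation 1 of the 5 genes most like ANKRD1 was among the 5 listed, which were tied at 1.0, and the rest had 0.952 to 0.976. The causes of these shifts were not tested. Depth is unknown, and low genes are limited by the shrinkage of the normalisation.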

Other observations

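MYOF, a membrane repair gene and YAP target, followed replicate number more than treatment. It stood at 5.71, 6.95, 3.93 and 5.40 in vehicle replicates 1 to 4 and at 5.26, 6.28, 3.96 and 5.13 in EZHi replicates 1 to 4 (difference -0.34, limma adjusted p = 0.792). TAGLN had the same order of replicates in both groups, with 9.34 and 8.49 in replicate 2 and 7.74 and 7.16 in replicate 3. IGFBP3 ran the other way, with 7.68 and 9.02 in replicate 2 and 9.34 and 10.45 in replicate 3.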
